A study of Homo sapiens with 4 samples.

Results

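The WNT pathway genes examined here were 46 of the 20033 protein-coding genes of the GENCODE v44 annotation, taken as a named list and not filtered by a measured value. The list and its classes were, however, chosen with earlier results of these data known. The genes comprised 19 WNT ligand genes, 12 receptor genes (FZD1 to FZD10, LRP5 and LRP6), 7 genes of intracellular transduction (AXIN1, APC, CTNNB1, LEF1, TCF7, TCF7L1 and TCF7L2) and 8 feedback genes (AXIN2, LGR5, RNF43, ZNRF3, NKD1, DKK1, SFRP1 and SFRP2). A gene was counted with every peak that overlapped its body or the 10 kb on either side. A promoter peak had its centre between 1000 bp before and 100 bp after an annotated start site of the gene.

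WNT proteins are secreted ligands that bind Frizzled receptors and the co-receptors LRP5 and LRP6. Without a ligand, a cytoplasmic complex built on AXIN1 and APC marks β-catenin (CTNNB1) for degradation. With a ligand, β-catenin accumulates, enters the nucleus and acts with the TCF and LEF factors on target genes, several of which encode inhibitors of the pathway itself. WNT signalling has been studied in synovial sarcoma as a growth pathway of the tumor.

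HSSY II is a human synovial sarcoma cell line that carries the SS18::SSX fusion, a protein that joins the SWI/SNF chromatin-remodeling complex to new sites. WDR5 is a scaffold protein of histone H3 lysine methyltransferase complexes, and MS67 is a PROTAC that directs WDR5 to degradation. The cells received either DMSO, the vehicle, or 2.5 μM MS67 for 4 days, and CUT&RUN, which cuts and releases DNA at an antibody-bound protein, was carried out with antibodies to SS18::SSX and to WDR5, giving 1 library for each of the 4 combinations. Each library started from 1000000 cells with 50000 mouse NIH-3T3 cells as spike-in, and all values come from this 1 cell line. With 1 library per condition there was no replicate check, so no test between conditions was made. The intervals given for shares are exact Clopper-Pearson 95% intervals that cover counting error only and treat neighbouring peaks as independent.

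The 4 peak lists differed in size and depth over the whole genome. They held 15141 SS18::SSX peaks with DMSO and 1175 with MS67, and 35605 WDR5 peaks with DMSO and 14123 with MS67. Each peak carries a fold enrichment over the local background, a p-value and a q-value, the p-value adjusted for the number of positions examined, the last 2 as −log10, so that higher means stronger. From the fold enrichment and the p-value, the number of fragments at its summit and the local background could be solved. The genome-wide coverage obtained this way was 0.541 fragments per base for SS18::SSX with DMSO and 0.737 with MS67, which is 1.36 times as deep. For WDR5 it was 0.368 with DMSO and 0.168 with MS67, which is 0.458 times as deep. Fewer WDR5 peaks with MS67 therefore came with a shallower library, whereas fewer SS18::SSX peaks came with a deeper one.

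In DMSO-treated cells, SS18::SSX peaks lay near most WNT ligand genes and near fewer of the other members. In all, 93 SS18::SSX peaks fell in the windows of the 46 genes and 29 of the genes (63.0%) had at least 1 peak, where 31.8% of all protein-coding genes did. By class, 16 of 19 ligand genes had a peak, against 7 of 12 receptor genes, 4 of 8 feedback genes and 2 of 7 transduction genes. Promoter peaks were found at 14 of the 46 genes (30.4%), beside 13.4% of all protein-coding genes. Of these 14, 10 were ligand genes (WNT2, WNT2B, WNT3, WNT3A, WNT5A, WNT7B, WNT9A, WNT10A, WNT10B and WNT16), 2 were the secreted inhibitors DKK1 and SFRP2, and the last 2 were the receptor FZD8 and the transcription factor TCF7L2.

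Because windows differ in length, the covered share of sequence was compared too. SS18::SSX peaks covered 0.831% of the 3439 kb of member windows and 0.216% of the windows of all protein-coding genes. The covered share was 1.30% for ligands, 0.920% for receptors, 0.556% for feedback genes and 0.465% for transduction genes. The classes thus stood in the same order by genes with a peak and by covered sequence. Below the ligands, however, the covered shares rest on few genes. FZD8 and FZD9 held 2516 and 2427 of the 6292 bp covered at receptors, and LGR5 held 3404 of the 4100 bp at feedback genes. AXIN1 and TCF7L2 held 2542 and 1933 of the 4475 bp at transduction genes. When only the 5′ end of each gene was taken as its start site, promoter peaks were left at 7 genes, namely 4 ligand genes, 2 feedback genes and FZD8, and the ligand share of 4 of 19 was then below the feedback share of 2 of 8. Among peaks with a −log10 q above 5, promoter peaks were left at 3 genes. Neither count was made over all protein-coding genes.

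**Figure D1:**
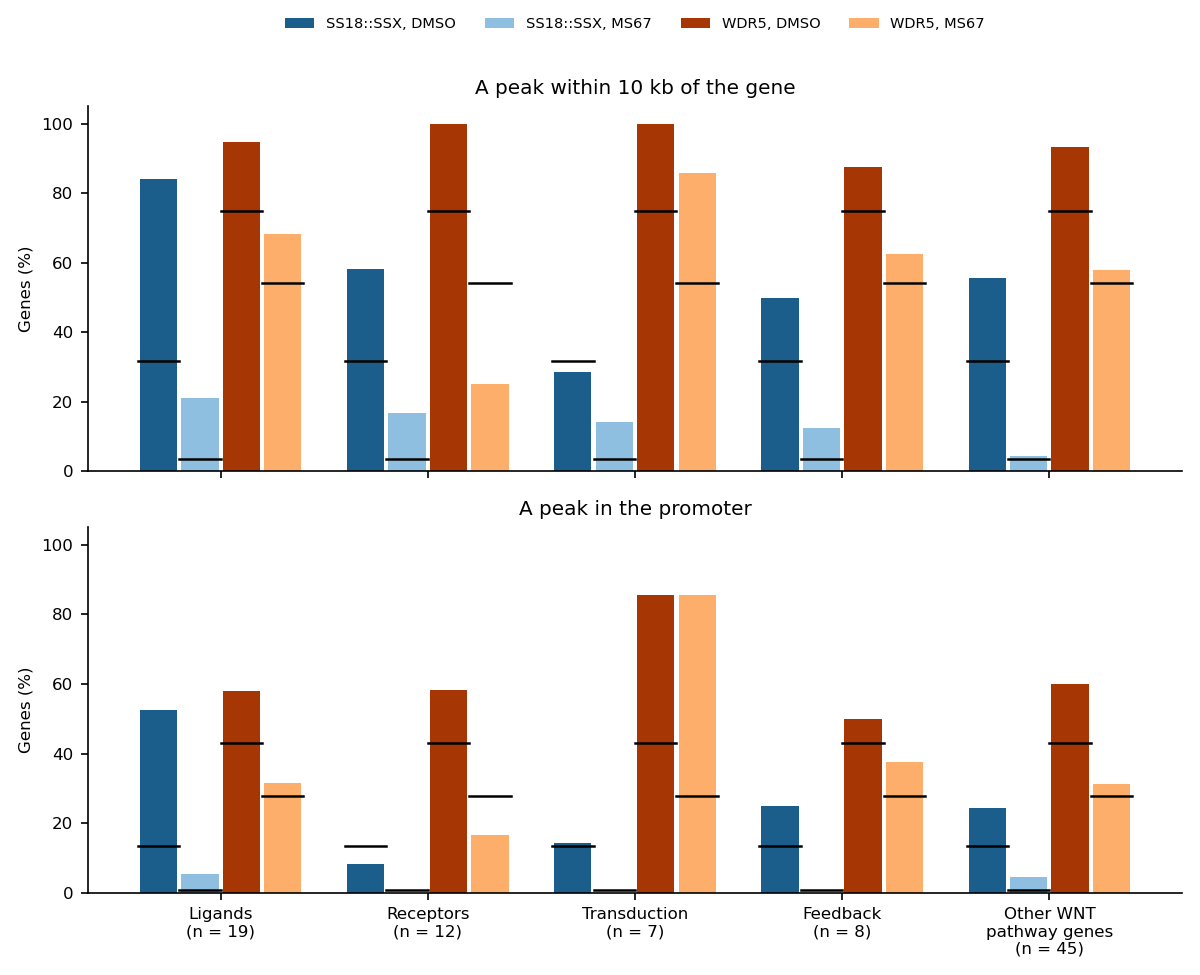
Share of genes in each class (vertical axis, %) with a peak in the gene window (top) or in the promoter (bottom), with 1 bar for each of the 4 peak lists, and black lines for the share among all 20033 protein-coding genes in the same list. The SS18::SSX bar with DMSO is highest for the ligands in both panels, at 84.2% and 52.6%, and WDR5 promoter peaks with MS67 are found at 85.7% of transduction genes and 16.7% of receptor genes when every annotated start site counts (2 of 7 and 2 of 12 genes with the 5′ end alone, when the feedback share of 3 of 8 is the highest).

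Sequences under 7 of the SS18::SSX peaks found with DMSO are given here because the results below turn on them. They are the peak with the highest −log10 q in each class, outside annotated untranslated regions, followed by the WNT3A promoter peak and the stronger WNT7B intron peak that were also present with MS67, and by the FZD10 peak. Each is 141 bases of the hg38 plus strand, 5′ to 3′, centred on the summit. Capitals mark matches, on either strand, to CCAAT (the NF-Y motif), GGGCGG (a GC box bound by SP factors), CACGTG (an E-box) or CTTTGAT (a TCF/LEF motif).
WNT7B upstream, chr22:45977781-45977921: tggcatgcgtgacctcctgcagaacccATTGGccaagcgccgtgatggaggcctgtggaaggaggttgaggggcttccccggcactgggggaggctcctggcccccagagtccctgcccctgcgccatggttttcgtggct
FZD8 exon, chr10:35641225-35641365: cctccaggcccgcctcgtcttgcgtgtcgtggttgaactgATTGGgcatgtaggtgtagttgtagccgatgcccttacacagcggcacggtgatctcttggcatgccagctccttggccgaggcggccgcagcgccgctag
TCF7L2 intron, chr10:112983673-112983813: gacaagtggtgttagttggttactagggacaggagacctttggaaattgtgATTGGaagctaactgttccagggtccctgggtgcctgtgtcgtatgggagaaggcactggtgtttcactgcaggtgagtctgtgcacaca
LGR5 intron, chr12:71576397-71576537: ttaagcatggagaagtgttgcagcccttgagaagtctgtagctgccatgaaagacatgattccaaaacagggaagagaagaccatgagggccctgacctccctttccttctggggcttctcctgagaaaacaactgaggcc
WNT3A promoter, chr1:228006231-228006371: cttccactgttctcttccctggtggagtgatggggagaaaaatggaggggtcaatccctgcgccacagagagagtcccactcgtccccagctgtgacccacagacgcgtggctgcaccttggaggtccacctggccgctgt
WNT7B intron, chr22:45975001-45975141: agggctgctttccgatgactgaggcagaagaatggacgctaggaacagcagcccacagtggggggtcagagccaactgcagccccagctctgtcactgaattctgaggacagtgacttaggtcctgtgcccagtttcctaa
FZD10 upstream, chr12:130160978-130161118: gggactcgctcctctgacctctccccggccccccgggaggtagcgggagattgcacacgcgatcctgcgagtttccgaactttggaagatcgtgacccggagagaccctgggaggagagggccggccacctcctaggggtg

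The first 3 of these stretches hold CCAAT and the other 4 hold none of the 4 motifs. Their GC content ran from 50.4% at LGR5 to 66.7% at WNT7B upstream and FZD10, and the ratio of observed to expected CpG ran from 0 at LGR5 to 0.855 in the FZD8 exon. The FZD8 and FZD10 stretches hold 12 and 11 CpG, against 1 at TCF7L2. Within 100 bp of the summit, the 93 SS18::SSX peaks of the WNT pathway genes had a median GC content of 59.7% and a median CpG ratio of 0.302, beside 60.2% and 0.349 for all 15141 peaks of the list. CCAAT was found at 19.4% of the member peaks and 18.5% of all peaks, GGGCGG at 14% and 20.5%, CACGTG at 5.38% and 4.45%, and CTTTGAT at 2.15% and 1.57%. Member peaks thus had sequence composition near that of the whole list.

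At the 5′ ends of the genes themselves, over 250 bp before and 50 bp after the first base, the median GC content of the 46 members was 68.5%, where that of all 20033 protein-coding genes was 60.3%. GGGCGG was found at 32 of the 46 starts (69.6%) and at 52.4% of all starts, and CCAAT at 18 (39.1%) and 35.9%. CTTTGAT was found at 3 member starts (6.52%, beside 2.36% of all). The 29 members with an SS18::SSX peak and the 17 without had similar median GC content at the start, 67.7% and 69.3%. GGGCGG was found at 75.9% and 58.8% of their starts and CCAAT at 41.4% and 35.3%. The 3 starts with CTTTGAT were all among the 17. These differences were not tested.

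Among the ligand genes, WNT16 and WNT5B had the most SS18::SSX peaks with DMSO, 8 each, followed by WNT7B with 6 and WNT3A with 5. The list's highest −log10 q at any member, 11.5, was at the WNT7B upstream peak (chr22:45977689-45978647), which is 1006 bp before a start site and had 47 fragments at the summit and a fold enrichment of 4.15. WNT7B, a ligand active in lung and bone development, had a promoter peak as well, with 34 fragments and a −log10 q of 3.35. The strongest peak at WNT16, a ligand known from bone and joint tissue, lay on exonic sequence 570 bp from a start site, with 35 fragments and a −log10 q of 9.54. Peaks at both genes sat in sequence of raised local background, 7.57 to 23.5 times the genome-wide coverage at WNT7B and 11.7 to 15.3 times at WNT16, where the median over all peaks of the list was 5.72 times. The part of that background in the peak counts was not tested.

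At WNT3A, the archetypal ligand of the β-catenin branch, 3 of the 5 peaks were grouped between 755 bp before and 1961 bp after the start site, and the other 2 lay at the far end of the gene. WNT5A, a ligand of β-catenin-independent signalling, had 2 peaks, 665 and 1427 bp upstream of its start site, with 14 and 13 fragments. WNT1 and WNT10B share 3 peaks because their windows overlap, as do WNT6 and WNT10A, so 6 of the 93 peaks count for more than 1 gene. The 3 ligand genes without an SS18::SSX peak were WNT8A, WNT9B and WNT11. WNT8A was the one member with no peak in any of the 4 lists.

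Among the receptor genes, FZD8 and FZD9 had 5 SS18::SSX peaks each with DMSO, which covered 10.5% and 10.9% of their windows, the highest shares of all members. FZD4 and FZD7 had 2 peaks each, and FZD1, FZD5 and FZD10 had 1 each. FZD2, FZD3, FZD6 and the co-receptors LRP5 and LRP6 had none. The FZD8 peaks had 52 to 64 fragments at the summit, but local background there was 35.0 to 41.3 times the genome-wide coverage, above the 90th percentile of 26.9 for the list, and their fold enrichment was 2.33 to 3.02. The FZD10 peak (chr12:130160964-130161185) lay 1384 bp before the start site, outside the promoter as defined, and was a weak one, with 11 fragments, a fold enrichment of 4.09 and a −log10 q of 2.75. It was closer to the antisense gene FZD10-AS1, whose start site lay 603 bp away.

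Among the transduction genes, AXIN1 and TCF7L2 had 7 peaks each, and APC, CTNNB1, LEF1, TCF7 and TCF7L1 had none. TCF7L2 encodes a DNA-binding partner of β-catenin. Its peaks were spread over the gene, the strongest of them in an intron 32887 bp from the nearest start site (32 fragments, −log10 q 9.70), and its promoter peak was at an internal start site, 176690 bp from the 5′ end of the gene. At AXIN1, a scaffold of the destruction complex, 4 of the 7 peaks lay 11364 to 13678 bp from the nearest AXIN1 start site, beyond the 3′ end of the gene, and were closer to start sites of ARHGDIG and PDIA2.

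Among the feedback genes, LGR5 had 14 SS18::SSX peaks with DMSO, the most of any member. LGR5 is a receptor for R-spondins and a stem cell marker induced by WNT signalling. Of its 14 peaks 13 were intronic, spread from 762 to 136704 bp after the 5′ end, and none was in a promoter. Their summits held 7 to 28 fragments, and the highest −log10 q was 8.15, at the intron peak whose sequence is given above. The secreted inhibitors SFRP2, DKK1 and SFRP1 had 2, 1 and 1 peaks, with 9 to 14 fragments. AXIN2, RNF43, ZNRF3 and NKD1, which act inside the cell or at its membrane to dampen the signal, had no SS18::SSX peak.

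**Figure D2:**
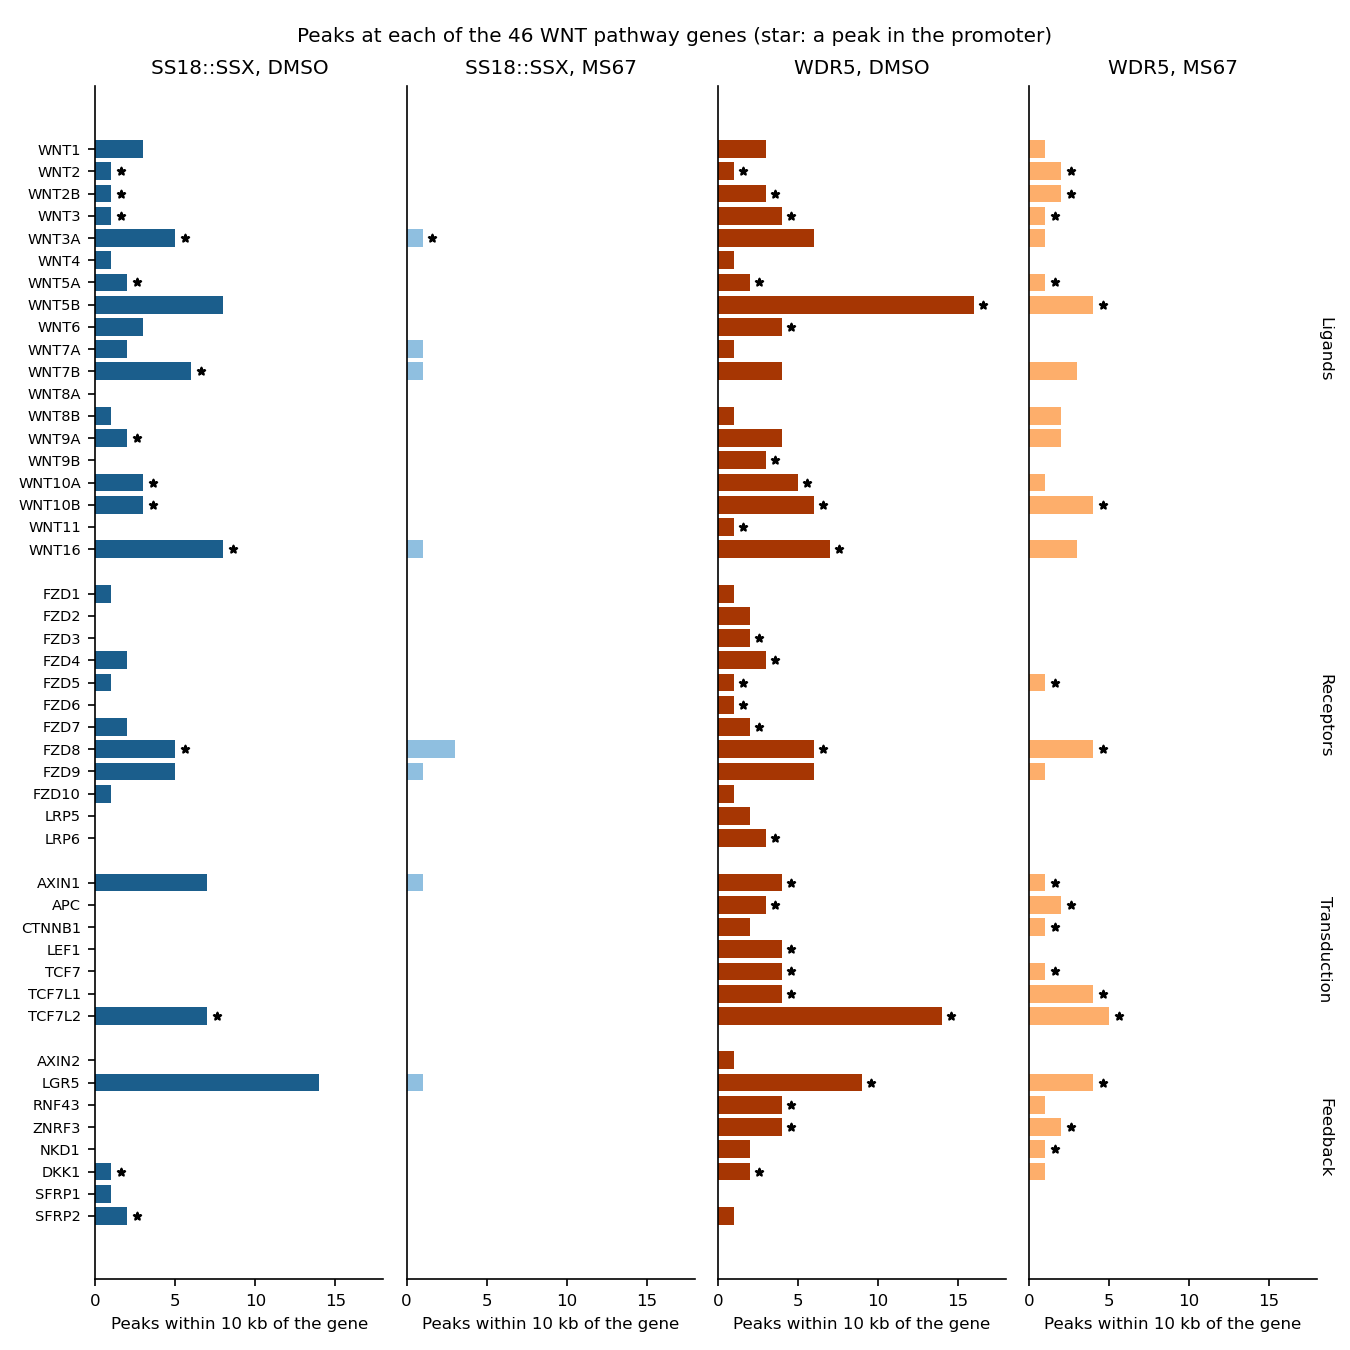
Number of peaks in the window of each of the 46 genes (horizontal axis, peaks within 10 kb of the gene), by class from top to bottom, with 1 panel per peak list and a star where a peak lies in the promoter. The longest SS18::SSX bar is that of LGR5 with 14 peaks, and with MS67 the SS18::SSX panel holds bars at 8 genes.

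Over all member windows, 14 of the 93 SS18::SSX peaks were in promoters of members, 39 in introns, 14 in exons outside promoters, 13 upstream and 13 downstream. For 61 of the 93, the nearest annotated start site of any gene was that of a member, and 44 lay within 2 kb of a member's start site. The peaks were 136 to 1296 bp long.

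WDR5 peaks with DMSO were found near nearly all members. There were 154 in the windows, and 44 of the 46 genes (95.7%) had at least 1, beside 75.0% of all protein-coding genes. The exceptions were WNT8A and SFRP1. The classes were close to each other, with 18 of 19 ligand genes, 12 of 12 receptor genes, 7 of 7 transduction genes and 7 of 8 feedback genes. WDR5 peaks covered 1.75% of the member windows and 0.738% of the windows of all protein-coding genes. Promoter peaks were present at 28 members (60.9%), beside 43.0% of all protein-coding genes, at 6 of 7 transduction genes, 11 of 19 ligands, 7 of 12 receptors and 4 of 8 feedback genes. This order depends on how start sites are counted, since transduction genes had 4 to 48 annotated start sites (median 21.0) and receptor genes 1 to 7 (median 1). With the 5′ end of each gene as its single start site, the counts were 3 of 7 transduction genes, 6 of 19 ligands, 6 of 12 receptors and 3 of 8 feedback genes, so that the receptor share was then the highest.

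WNT5B had the most WDR5 peaks, 16, followed by TCF7L2 with 14 and LGR5 with 9. The highest −log10 q, 26.9, belonged to a peak of 39 fragments over exonic sequence of WNT8B, 19374 bp after its start site and 7788 bp from the start of the neighbouring gene SEC31B. The FZD8 promoter peak had the most fragments of all, 75, on a local background 52.9 times the genome-wide coverage. In AXIN1 the promoter peak, 713 bp before the start site, had 24 fragments, a fold enrichment of 9.17 and a −log10 q of 15.0. RNF43, which encodes a ubiquitin ligase that removes Frizzled receptors from the membrane, had a promoter peak of 10 fragments and a fold enrichment of 7.86.

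Of the 93 SS18::SSX peaks with DMSO, 42 (45.2%, interval 34.8 to 55.8%) shared at least 1 bp with a WDR5 peak, where 36.0% of the SS18::SSX peaks of all protein-coding genes did. The share was 25 of 44 for ligands (56.8%), 7 of 14 for transduction genes, 6 of 17 for receptors and 4 of 18 for feedback genes. Under the study's own stricter limits (−log10 q above 3 in both, and a fold enrichment above 6 in the WDR5 lists and above 3 in the others), which leave 15 WDR5 peaks in the windows, the share was 5%. That share was not computed for all protein-coding genes. The interval of the ligand share, 41.0 to 71.7%, overlaps those of the receptors (14.2 to 61.7%) and of the feedback genes (6.41 to 47.6%). At the level of promoters, 10 members had a peak of both proteins, 4 had SS18::SSX alone (WNT3A, WNT7B, WNT9A and SFRP2), 18 had WDR5 alone and 14 had neither. These are 21.7%, 8.70%, 39.1% and 30.4% of the members, beside 9.34%, 4.06%, 33.6% and 53.0% of all protein-coding genes, so the share with WDR5 alone was near that of all genes. The 18 with WDR5 alone included 6 receptor genes (FZD3, FZD4, FZD5, FZD6, FZD7 and LRP6) and 5 transduction genes.

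With MS67, most SS18::SSX peaks at the WNT pathway genes were no longer called. Of the 93 peaks found with DMSO, 87 (93.5%, interval 86.5 to 97.6%) had no overlapping peak with MS67, next to 94.6% of the peaks of all protein-coding genes, so the loss at the WNT pathway genes was close to that over the genome. In all 4 classes the share lost lay between 88.2% and 100%. Scaled to the depth of the MS67 library, 91 of the 93 peaks would still have passed the lowest p-value found in that list. Every SS18::SSX peak was lost at 24 of the 29 genes, among them all 8 peaks of WNT5B, all 8 of WNT16, all 7 of TCF7L2, all 14 of LGR5 and the FZD10 peak. The matching count of genes was not made over all protein-coding genes. With 94.6% of their peaks lost, it is not read as a trait of the members.

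The 6 peaks that had an overlapping peak with MS67 were at WNT7B (2 peaks, 1 MS67 peak), WNT3A, FZD8, FZD9 and AXIN1. These had 21 to 61 fragments at the summit with DMSO, with a median of 40.0, where the 87 lost peaks had 7 to 64, with a median of 19.0. The range of the kept peaks lies within that of the lost ones, as the plot of summit fragments of lost and kept peaks shows. The local background of the 6 was 11.7 to 38.2 times the genome-wide coverage, and the median over the lost peaks was 7.31 times. Whether the background had a part in which peaks were called again was not tested.

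**Figure D3:**
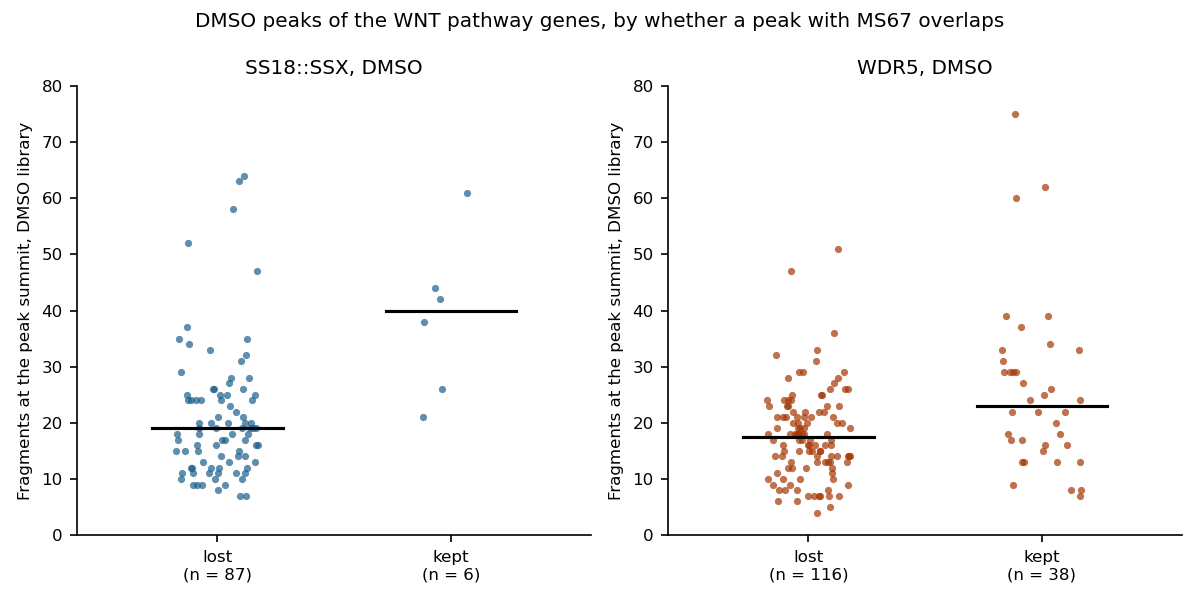
Fragments at the peak summit in the DMSO library (vertical axis), for peaks of the WNT pathway genes that had no overlapping peak with MS67 (lost) or had one (kept), with 1 point per peak, a random sideways shift and a black line at the median. Kept SS18::SSX peaks have a median of 40.0 fragments and lost ones 19.0, and for WDR5 the medians are 23 and 17.5.

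SS18::SSX peaks with MS67 numbered 10, at 8 of the 46 genes (17.4%), beside 3.63% of all protein-coding genes. At WNT3A the promoter peak remained, with 23 fragments after MS67 and 21 with DMSO, and it was the 1 promoter peak among the 46 genes, beside 0.724% of all protein-coding genes. At WNT7B the intron peak had 41 fragments, where the 2 DMSO peaks that it overlaps had 42 and 44. At FZD9 the exon peak had 21 fragments after 38 with DMSO, and at AXIN1 the peak beyond the 3′ end had 22 after 26. The library with MS67 was the deeper of the pair, so equal fragment numbers stand for a lower relative height, for WNT7B 55.6 times the genome-wide coverage after 77.7 and 81.4 times.

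FZD8 had 3 of the 10 peaks, with 48 to 68 fragments on a local background 21.4 to 33.7 times the genome-wide coverage, and 1 of these overlapped a DMSO peak. Without FZD8, 7 peaks and 7 genes were left. For 5 of the 10 peaks (50%, interval 18.7 to 81.3%) no DMSO peak overlapped, beside 25.8% over all protein-coding genes. They were the other 2 peaks of FZD8 and 1 each at WNT7A, WNT16 and LGR5. The WNT7A peak, in an intron 607 bp after the start site, had 17 fragments, a fold enrichment of 7.01 and a −log10 q of 7.32, and lay between 2 DMSO peaks at 171 and 1354 bp. The peaks at WNT16 and LGR5 were weaker, with −log10 q of 2.23 and 1.70. No SS18::SSX peak with MS67 in any member window overlapped a WDR5 peak with MS67, where 10.5% of the SS18::SSX peaks of all protein-coding genes did, a share that 0 of 10 peaks cannot be told from.

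**Figure D4:**
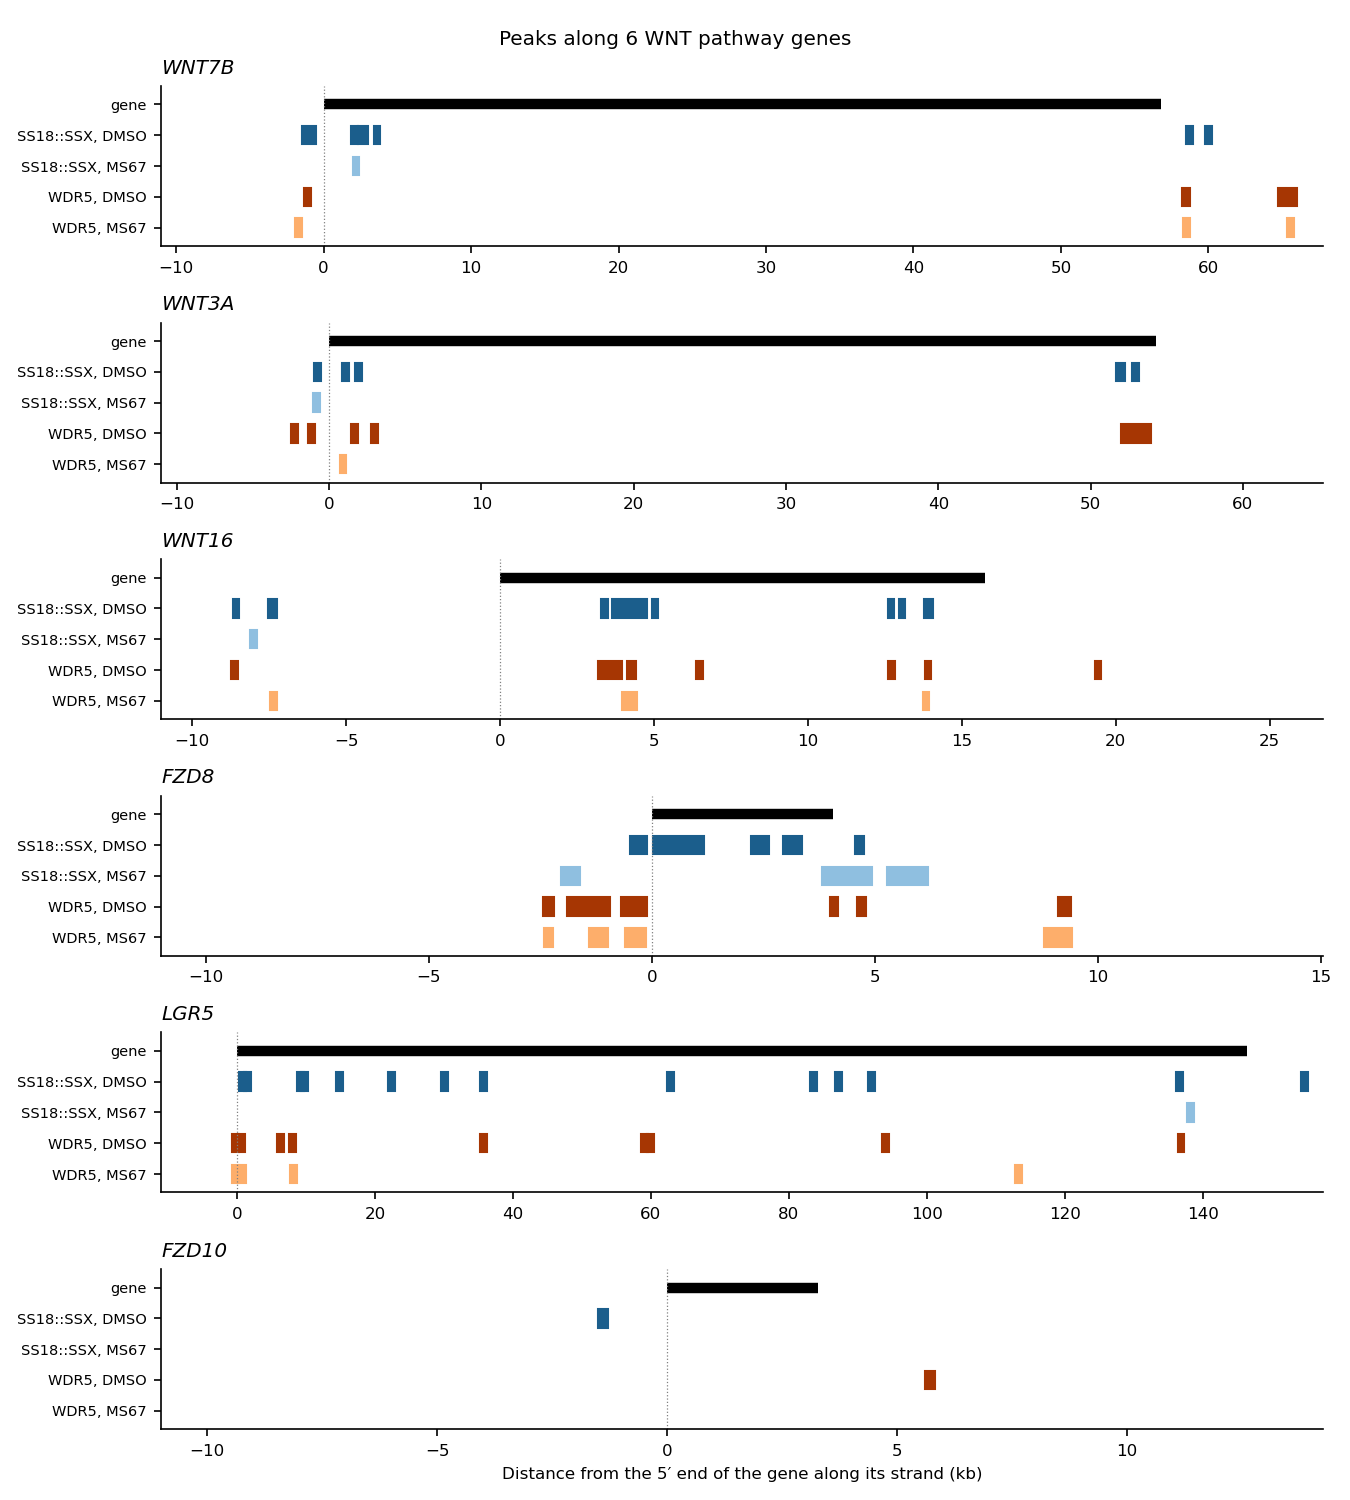
Position of the peaks of the 4 lists along 6 WNT pathway genes (horizontal axis, distance from the 5′ end of the gene along its strand in kb; black bar, gene body; peaks drawn at least 0.6% of the axis wide so that short ones can be seen). The SS18::SSX track with MS67 keeps 1 mark before the start of WNT3A and 1 inside WNT7B, and holds none at FZD10.

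WDR5 peaks with MS67 numbered 55, and 27 of the 46 genes (58.7%) had at least 1, beside 54.1% of all protein-coding genes. Of the 154 DMSO peaks, 116 (75.3%, interval 67.7 to 81.9%) had no overlapping peak with MS67, where the share over all protein-coding genes was 72.8%. The classes ranged from 72.7% for ligands to 80% for receptors, with overlapping intervals. The libraries also differed in depth, and the part of depth in this loss was not tested. When fragments and background were scaled to the MS67 library, only 66 of the 154 peaks (42.9%) would still have passed the lowest p-value of its list, and 40 of the 116 lost peaks were among them. Over all protein-coding genes, 45.2% would have passed, with 7602 of the 20340 lost peaks among them, which is close to the values of the members. Of the 55 peaks, 17 (30.9%) overlapped no DMSO peak, beside 33.9% over all protein-coding genes.

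WDR5 promoter peaks with MS67 were present at 2 of 12 receptor genes, where 7 had one with DMSO, and at 6 of 7 transduction genes, the number also found with DMSO. With the 5′ end alone, they were at 2 of 12 receptor genes after 6 with DMSO, at 2 of 7 transduction genes after 3, at 2 of 19 ligand genes after 6 and at 3 of 8 feedback genes, where 3 had one with DMSO, so the high count of the transduction genes rests on their internal start sites. Over all members, 17 had a WDR5 promoter peak with MS67 (37.0%, beside 27.7% of all protein-coding genes), of which 15 had 1 with DMSO as well. At 12 of these 15 a promoter peak of one list overlapped one of the other, and at WNT5A, WNT5B and TCF7 none did. Among transduction genes, AXIN1, APC, TCF7, TCF7L1 and TCF7L2 had a promoter peak in both lists, LEF1 with DMSO alone and CTNNB1 with MS67 alone. At AXIN1 the MS67 peak had 6 fragments and a −log10 q of 2.96, after 24 fragments and 15.0. At APC, the promoter peak had 12 fragments with MS67 and 13 with DMSO. The WDR5 library with MS67 was the shallower of the pair, so equal fragment numbers stand for a greater relative height. As multiples of the genome-wide coverage, the APC peak was at 71.2 with MS67 and 35.4 with DMSO, and the AXIN1 peak at 35.6 and 65.3. The APC peak with MS67 also overlapped an adjacent DMSO peak in an intron, with 16 fragments and a height of 43.5 times the coverage. At TCF7 the peaks lay at different start sites, and the one with MS67, with 3 fragments, was at the lowest height of that list.

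Among receptor genes, FZD5 and FZD8 had a WDR5 promoter peak in both lists, and FZD3, FZD4, FZD6, FZD7 and LRP6 with DMSO alone. Of these 5 lost peaks, those of FZD4 and LRP6 would have passed at the depth of the MS67 library and the other 3 would not. Falling short there does not settle whether a peak could be called. A WNT2B promoter peak of 8 fragments with DMSO, as many as at FZD6, also fell short but overlapped a peak with MS67. The part of depth in the loss of the 3 was not tested. Outside promoters, 10 of the 12 receptor genes had a WDR5 peak with DMSO and 2 (FZD8 and FZD9) with MS67. In the whole window, 3 of the 12 had a WDR5 peak with MS67, beside the 54.1% of all protein-coding genes, and FZD10, LRP5 and LRP6 were among those with none. That count depends on the window, as it was 1 with the gene body alone and 9 with 50 kb on each side. The single FZD10 peak with DMSO, of 14 fragments 5718 bp from the nearest start site, would not have passed at the MS67 depth either.

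Ligand genes had overlapping WDR5 promoter peaks in both lists at WNT2, WNT2B, WNT3 and WNT10B, and with DMSO alone a promoter peak at WNT6, WNT9B, WNT10A, WNT11 and WNT16. WNT5A and WNT5B had a promoter peak in each list, but at different start sites, at WNT5A 10 bp after the 5′ end with DMSO and 8764 bp after it with MS67. The WNT10B promoter peak had 37 fragments with DMSO and 14 with MS67, which is 101 and 83.1 times the genome-wide coverage of each library. Of the feedback genes, LGR5 and ZNRF3 had promoter peaks in both lists, RNF43 and DKK1 with DMSO alone and NKD1 with MS67 alone. The LGR5 promoter peak had 24 fragments with DMSO and 16 in the shallower library with MS67, at a fold enrichment of 3.75 and 4.53. The DKK1 promoter peak, of 24 fragments and a −log10 q of 12.5 with DMSO, would have passed at the MS67 depth but was not called there. AXIN2, a direct target of β-catenin, had a single WDR5 peak with DMSO, in an intron, and none with MS67.

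Of the WDR5 peaks that overlapped an SS18::SSX peak with DMSO, 25 of 41 were lost with MS67 (61.0%, interval 44.5 to 75.8%). Of the WDR5 peaks that did not, 91 of 113 were lost (80.5%, interval 72.0 to 87.4%). These intervals overlap. Over all protein-coding genes the shares were 66.8% and 73.7%. For SS18::SSX, peaks at a WDR5 peak were lost in 39 of 42 cases and the others in 48 of 51, which are shares of 92.9% and 94.1%, close to the 93.0% and 95.5% over all protein-coding genes.

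A further 45 genes of the pathway, listed by function, gave lower SS18::SSX counts than the 46 members. Of these, 25 (55.6%) had an SS18::SSX peak in the window with DMSO and 11 (24.4%) a promoter peak, beside 31.8% and 13.4% of all protein-coding genes. The covered share was 0.262%, against 0.831% for the members and 0.216% for all protein-coding genes. Peaks were found at 7 of 10 secreted inhibitors, 4 of 5 receptor-like genes, 6 of 11 cytoplasmic genes, 2 of 4 R-spondins, 3 of 7 planar polarity genes, 2 of 5 nuclear genes and 1 of 3 genes of WNT secretion. BTRC, whose product recognises marked β-catenin for degradation, had the most, 9, and ROR2, a receptor for WNT5A, and RSPO2, which enhances WNT signalling, had 4 each. With MS67, peaks were left at NOTUM, which encodes an enzyme that inactivates WNT ligands, and at CELSR1, a planar polarity cadherin, both in the promoter. These 2 genes are 4.44% of the 45. Among all protein-coding genes, 3.63% had a peak in the window and 0.724% a promoter peak in that list. WDR5 peaks with DMSO were present at 42 of the 45 genes (93.3%, beside 75.0% of all protein-coding genes). With MS67 they were present at 26 (57.8%), near the 54.1% of all protein-coding genes.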

How the data were processed

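The authors carried out CUT&RUN on HSSY II cells and aligned reads to hg38 and to the mouse spike-in genome with Bowtie2, removed duplicates with Picard and called peaks with MACS2. SAMtools 1.9, bedtools 2.28.0 and deepTools 3.3.0 are named in the submitters' processing notes, and the MACS2 options are not given in the sources used here. Per the file headers, the deposited narrowPeak lists, 1 per library, give a fold enrichment (ratio) over the local background, a −log10 p-value and a −log10 q-value for each peak. The deposited score column was not used. No spike-in scaling was applied here.

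Summit fragments and background were solved from fold and p-value under a Poisson model (tolerance 0.001 in −log10 p; 100% of peaks were solved, and the step was tested on simulated peaks). Overlap meant at least 1 bp. Members, gene lists and classes were chosen with earlier results of these data known. Values were named by rule: members with promoter peaks and most peaks in their class, members with a peak after MS67, the strongest peak of each list, promoters with 1 target alone, and FZD10 and WNT7B. Sequences were read from hg38. The RefSeq promoter table matched 32 of the 46 members, under the 80% needed, so that check is void and start sequence came from hg38 for all members. No test was run, as each condition had 1 library. Alternatives were another window, stricter thresholds, merged peaks, other overlap limits and other promoter definitions. Analyses used Python 3.11.15 with numpy 2.4.6, pandas 2.3.3 and scipy 1.17.1.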

Additional observations from a re-analysis of the deposited data

Results flagged for a closer look

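At WNT2 and at WNT8B the 2 proteins moved in opposite directions with MS67 by number of peaks. The number of WDR5 peaks was higher by 1 at each gene, 2 with MS67 after 1 with DMSO, and the number of SS18::SSX peaks went from 1 to none. The difference was not tested. In both cases the 2 WDR5 peaks with MS67 overlap the 1 wider DMSO peak, which spans chr7:117322563-117324764 at WNT2 and chr10:100481783-100482982 at WNT8B. By covered sequence WDR5 went down as well, from 2202 to 659 bp at WNT2 and from 1200 to 480 bp at WNT8B. At WNT2 the DMSO peak had 39 fragments at its summit and the MS67 peaks 15 and 23. Relative to the genome-wide coverage of each library, that is 106 times with DMSO and 89.0 and 137 times with MS67. At WNT8B the DMSO peak had 39 fragments and the MS67 peaks 6 each, which is 106 and 35.6 times the coverage.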

How the results depend on the processing

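Of 144 comparisons of a main result over all members with an alternative, 87 were within 1.5 times the main count or share of sequence, or inside the interval of the main share, and 57 were not. With the counts by class included there were 352 comparisons, of which 228 were within these limits and 124 were not. The alternatives were run on the members alone. Whether the members still differ from all protein-coding genes under them was therefore not tested. With the gene body alone, SS18::SSX peaks with MS67 fell to 5 at 5 genes (covered share 0.0762%), and WDR5 peaks to 99 with DMSO and 32 with MS67. With 50 kb on each side there were 143 and 18 SS18::SSX peaks and 266 and 99 WDR5 peaks with DMSO and MS67.

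Among peaks with a −log10 q above 5, there were 33 and 3 SS18::SSX peaks at 14 and 2 genes, with promoter peaks at 3 and 0 genes and covered shares of 0.409% and 0.0477%, and 100% of the DMSO peaks were lost and 100% of the MS67 peaks had no DMSO peak. There were 65 and 16 WDR5 peaks (covered 1.02% and 0.180%), and with MS67 10 genes had a peak and 6 a promoter peak. Under the study's thresholds there were 60 and 2 SS18::SSX peaks, promoter peaks at 6 and 0 genes, 2 genes with a peak after MS67 (covered 0.0185%), 98.3% of DMSO peaks lost and 5% shared with WDR5. There were then 15 and 10 WDR5 peaks at 11 and 7 genes, promoter peaks at 5 and 3, covered shares of 0.300% and 0.115%, 93.3% of DMSO peaks lost and 90.0% of MS67 peaks with no DMSO peak.

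With a peak within 1 kb counted as shared, 84.9% of SS18::SSX and 66.2% of WDR5 DMSO peaks were lost, 16.4% of WDR5 MS67 peaks had no DMSO peak and 73.1% of SS18::SSX peaks were shared with WDR5. With an overlap of at least 50% of the peak, 87.0% of WDR5 peaks were lost and 30.1% of SS18::SSX peaks were shared. With any peak within 1 kb of a start site, 3 genes had a promoter peak of SS18::SSX with MS67. With the 5′ end alone, promoter peaks were at 7 genes for SS18::SSX with DMSO and at 18 and 9 for WDR5, and the transduction genes no longer had the highest share for WDR5. The cause of these changes was not tested, beyond the fewer peaks and the other windows that each alternative uses.

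The following were chosen after seeing the data. Keeping only peaks nearest to a member's start site left 61 and 4 SS18::SSX peaks, the latter at 4 genes. Without FZD8 the covered share for SS18::SSX with MS67 was 0.0754%. In all alternatives that bear on it but the 5′ end alone, the ligand share with an SS18::SSX peak with DMSO stayed the highest of the 4 classes, in windows and in promoters. With a −log10 q above 5, the promoter ranking rested on 2 of 19 ligand genes against 1 of 12 receptor genes. Promoter counts do not depend on the window, so the other windows are no check of them. No paired analysis was possible because each condition had 1 library, and none could be left out.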
